A study of Mus musculus with 24 samples.

Results

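Arginine metabolism and nitric oxide synthesis were followed through 7 genes, Nos2, Gch1, Slc7a2, Ass1, Arg1, Arg2 and Odc1, chosen by name and all present among the 12767 genes of the deposited table. RNA sequencing measured them in dendritic cells pulled with CD11c microbeads from the mesenteric lymph nodes of C57BL/6 mice bearing MC38 tumours, a colon carcinoma line placed under the skin. The mice were labelled knockout for Myd88 or wild type, and each genotype had 4 treatments with 3 libraries each. These were the combination of an antibody to PD-1 with the oral bacterium LGG (Lactobacillus rhamnosus GG), LGG alone, the antibody alone, and control IgG. All mice were described as female and 6 to 8 weeks old, received 1000000 tumour cells, and entered treatment at a mean tumour size of 100 mm3, 7 to 10 days after injection. Treatment was given in 2 doses a week for 2 to 3 weeks, with 200 ug of antibody where one is recorded. No antibody injection is recorded for LGG alone, which is a further difference from IgG. Whether the 3 libraries of a group are from different animals is not labelled, and p-values may therefore reflect technical spread.

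Arginine enters myeloid cells through cationic amino acid transporters, of which Slc7a2 is the inducible member. Inducible nitric oxide synthase, the product of Nos2, splits arginine into nitric oxide and citrulline and needs tetrahydrobiopterin, whose synthesis begins with GTP cyclohydrolase (Gch1). Argininosuccinate synthase (Ass1) starts the rebuilding of arginine from citrulline. The arginases, Arg1 in the cytosol and Arg2 in mitochondria, compete for the same arginine and make ornithine and urea, and ornithine decarboxylase (Odc1) turns ornithine into putrescine, the first polyamine. In mouse macrophages Nos2 is a classic target of microbial products and interferon gamma, whereas Arg1 is a classic target of interleukin 4 and interleukin 13. Myd88 is the adaptor that most Toll-like receptors and the interleukin 1 receptor family use to signal.

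In the GENCODE M21 annotation of build mm10 all 7 are protein-coding genes. Nos2 lies at chr11:78920787-78960254 on the plus strand, Gch1 at chr14:47153895-47189413 on the minus strand and Slc7a2 at chr8:40862396-40922308 on the plus strand. Ass1 lies at chr2:31470207-31520672, Arg2 at chr12:79130777-79156301 and Odc1 at chr12:17544794-17551505, each on the plus strand, and Arg1 at chr10:24915221-24927484 on the minus strand. Promoter windows of the 250 bases before the start were found for 3 of the 7 in the RefSeq promoter table (build GRCm38.p6). Gch1 rose with LGG in both genotypes, whereas Ass1 and Odc1 moved in opposite directions in the genotypes, and stretches of these windows are shown 5′ to 3′ along the gene, with capitals for motif matches.
Gch1, chr14:47189414-47189523, minus strand, the last 110 bases before the start: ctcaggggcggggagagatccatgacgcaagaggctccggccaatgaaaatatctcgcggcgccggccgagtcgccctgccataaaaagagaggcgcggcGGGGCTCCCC
Ass1, chr2:31470223-31470252, plus strand, 30 bases around the match: gcgcccgtcccCACGTGtcccaggttcctg
Odc1, chr12:17544684-17544793, plus strand, the 110 bases before the GENCODE start: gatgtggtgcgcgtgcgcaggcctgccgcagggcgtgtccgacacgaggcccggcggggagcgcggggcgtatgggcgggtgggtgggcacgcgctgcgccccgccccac
The capitals in Gch1 match the NF-kB consensus and end at the base before the start. A match to that motif was held by 7.28% of 32536 distinct RefSeq windows of this length. The capitals in Ass1 hold the HIF core, ACGTG, on both strands in overlapping letters, 36 to 31 bases before the RefSeq start, and 16.7% of windows held that core. In GENCODE the Ass1 gene begins further upstream, so this stretch lies inside its annotated span. The Gch1 window also held TATAAA on the reverse strand, 188 to 183 bases before the start and outside the stretch shown, as did 12.3% of windows on either strand. No match was found in the Odc1 window for these motifs, or in any of the 3 windows for the GAS element (TTCNNNGAA), the ISRE core, the STAT6 site, AP-1 (TGANTCA) or C/EBP (TTGCNNAA), each searched on both strands. These 5 motifs were held by 7.04%, 2.98%, 5.89%, 6.73% and 9.57% of windows in that order. A match is a description of the letters only.

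The values below are normalised counts, whole reads divided by a factor for each library, and each library held 24531528 to 49272593 reads in the listed genes. Differences are log2 differences of value + 1 with the standard error of limma, fitted over all 24 libraries, on which a fold understates the change of low genes, and a gene was called at a Benjamini-Hochberg adjusted p under 0.05 over 12749 genes. Myd88 itself was counted at 697 to 1837 in the 12 libraries labelled knockout, against 1723 to 2232 in wild type, so reads were still assigned to it, and the third anti-PD-1 library overlapped wild type. The Y-linked gene Ddx3y stood at 1241 to 2136 in every library labelled knockout, against 0 to 4.50 in wild type, although the labels describe females only. Genotype and that difference cannot be told apart. The 5 dendritic cell markers were present in every group, at sums of 141776 to 342638 normalised counts at their widest, in labelled-knockout anti-PD-1. In labelled knockout, replicates 2 and 3 of anti-PD-1 and replicate 2 of LGG stood further from their groups than any other library. Values without these 3 are given for many, but not all, results where a call or a size changed.

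**Figure D1:**
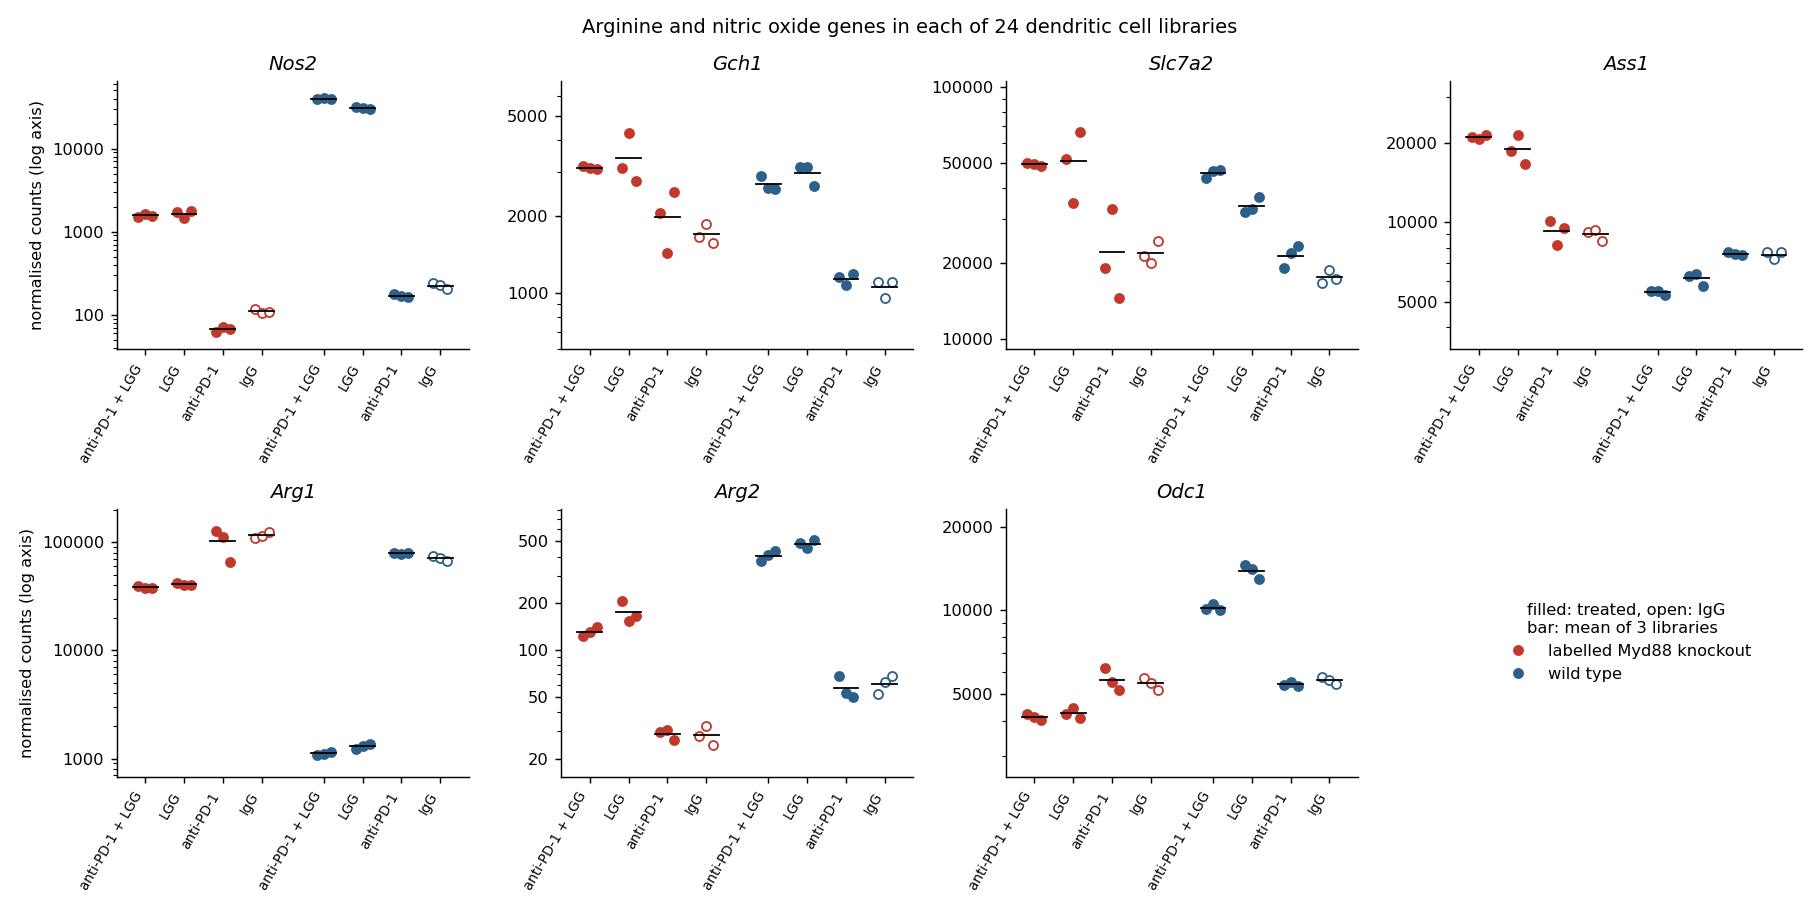
Normalised counts (log axis) of the 7 genes in each of 24 libraries, by treatment, with libraries labelled Myd88 knockout in red and wild type in blue; filled points are treated libraries, open points are IgG and bars are means of 3. The 6 wild-type libraries with LGG stand highest for Nos2 and lowest for Arg1, and the red and blue LGG libraries lie on opposite sides of their IgG libraries for Ass1 and Odc1.

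LGG, with or without the antibody, moved all 7 genes in both genotypes. In LGG against IgG, 5 genes rose and 2 fell in labelled-knockout cells, where 32.2% of all genes tested were called, 18.1% higher and 14.2% lower. In wild type 5 rose and 2 fell as well, where 55.5% were called, 27.4% higher and 28.2% lower. In the combination against IgG 5 rose and 2 fell in labelled knockout, where 33.5% of all genes were called, 19.1% higher and 14.4% lower. In wild type 5 rose and 2 fell with the combination, where 55.0% were called, 26.7% higher and 28.3% lower. With so many genes called, the number of calls says little, and the sizes carry the description. The median log2 difference of the 7 genes under LGG was 1.07 in labelled knockout and 1.31 in wild type, with medians over all genes of 5.66e-05 and -0.00324. Nos2, Arg2, Slc7a2 and Gch1 rose and Arg1 fell in both genotypes. Ass1 rose in labelled knockout and fell in wild type, and Odc1 fell in labelled knockout and rose in wild type. Without the libraries that stand apart, the log2 differences under LGG in labelled knockout were 3.98 for Nos2, 0.79 for Gch1, 1.43 for Slc7a2, 0.97 for Ass1, -1.50 for Arg1, 2.68 for Arg2 and -0.39 for Odc1, all called.

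**Figure D2:**
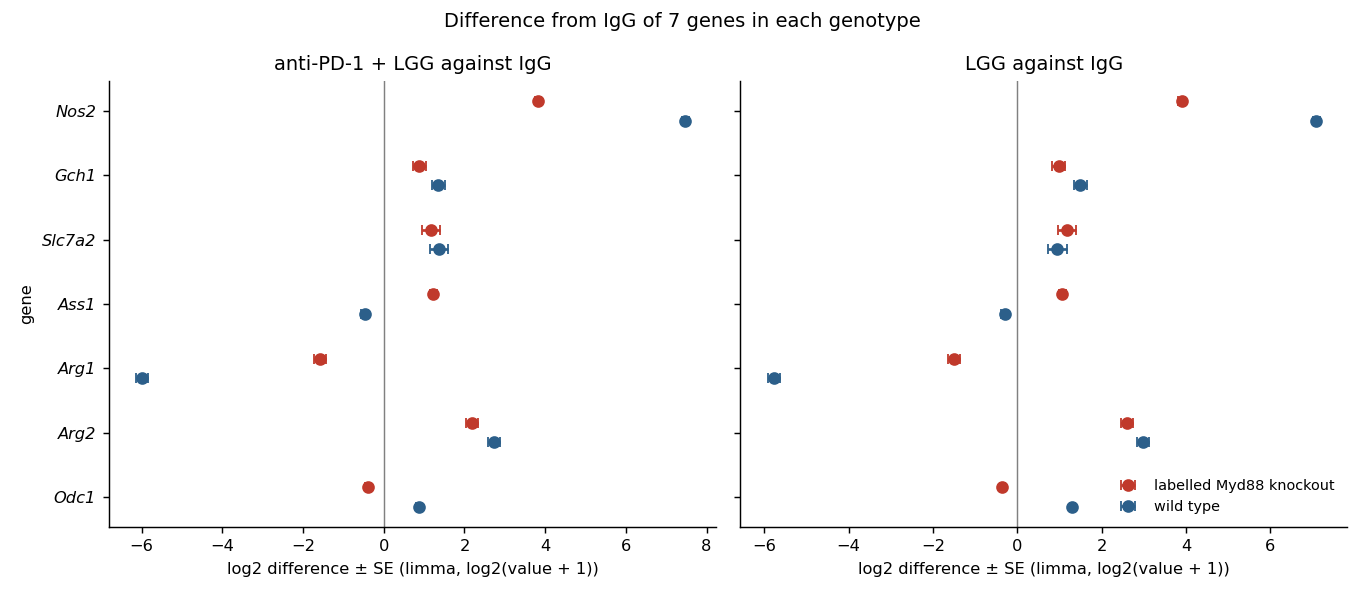
Log2 difference from IgG of the 7 genes under the combination (left) and LGG alone (right), with libraries labelled Myd88 knockout in red, wild type in blue and bars of 1 standard error (limma, 3 libraries a group). Nos2 and Arg1 lie furthest from 0 in wild type, and the red and blue points for Ass1 and Odc1 fall on opposite sides of 0.

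Nos2, the inducible nitric oxide synthase, had the widest range of the 7. In labelled-knockout cells it had 1522, 1639 and 1548 normalised counts with the combination, 1738, 1461 and 1757 with LGG, 61.7, 72.1 and 67.8 with anti-PD-1 and 116, 106 and 107 with IgG. In wild type it had 39238, 40579 and 39945 with the combination, 31284, 30559 and 30018 with LGG, 177, 169 and 165 with anti-PD-1 and 244, 228 and 202 with IgG. No library with LGG overlapped any library without it, and the 6 wild-type LGG libraries stood above all others. From the highest mean to the lowest, all neighbouring groups were separate except LGG and the combination in labelled knockout.

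The rise of Nos2 with LGG over IgG was 3.89 ± 0.08 (adjusted p = 1.96e-17) on the log2 scale in labelled knockout, 14.9-fold, and 7.09 ± 0.08 (adjusted p = 7.5e-22) in wild type, 136-fold. With the combination it was 3.82 ± 0.08 (adjusted p = 2.73e-17) in labelled knockout and 7.47 ± 0.08 (adjusted p = 2.78e-22) in wild type. In wild type Nos2 had the smallest p of all genes tested in both comparisons. The rise in labelled knockout minus that in wild type was -3.20 ± 0.12 (adjusted p = 7.8e-14) for LGG and -3.65 ± 0.12 (adjusted p = 1.33e-14) for the combination. With IgG alone Nos2 was already lower in labelled knockout than in wild type, at -1.02 ± 0.08 (adjusted p = 6.68e-09), and with LGG the difference was -4.22 ± 0.08 (adjusted p = 1.97e-18). The rise in labelled knockout was still among the largest of the table, with 6 genes rising more under LGG.

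Gch1, which starts the making of the cofactor for nitric oxide synthase, rose in both genotypes. The levels reached overlapped between genotypes with LGG alone but not with the combination. Labelled-knockout cells had 3168, 3101 and 3085 normalised counts with the combination, 3115, 4281 and 2763 with LGG, 2057, 1427 and 2496 with anti-PD-1 and 1659, 1859 and 1571 with IgG. Wild-type cells had 2899.8, 2590.3 and 2566 with the combination, 3138, 3138 and 2638 with LGG, 1148, 1074 and 1179 with anti-PD-1 and 1103, 956 and 1100.3 with IgG. Neighbouring groups with LGG overlapped, and all 4 lay above the 4 without it. Every labelled-knockout library lay above every wild-type one among groups without LGG, and also within the combination. The genotype difference with the combination was 0.22 ± 0.16 (adjusted p = 0.261) and did not pass. It passed with only the libraries compared in the fit (adjusted p = 0.000868).

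LGG raised Gch1 over IgG by 0.98 ± 0.16 (adjusted p = 8.92e-05) in labelled knockout and 1.49 ± 0.16 (adjusted p = 1.42e-07) in wild type, and the combination by 0.88 ± 0.16 (adjusted p = 0.00025) and 1.35 ± 0.16 (adjusted p = 5.7e-07) in the same order. The difference between genotypes in the LGG effect was -0.52 ± 0.23 (adjusted p = 0.086) and did not pass. Without the 3 libraries that stand apart it was -0.70 ± 0.12 and passed (adjusted p = 3.03e-05), labelled-knockout LGG replicate 2 having the highest Gch1 value of all libraries. For the combination effect the difference was -0.47 ± 0.23 (adjusted p = 0.125) and did not pass. None of the 3 libraries is in that comparison, so leaving them out changed only the estimated spread. The difference was then -0.47 ± 0.11 and passed (adjusted p = 0.00113). It also passed with only the libraries compared in the fit (adjusted p = 0.000628). With IgG, Gch1 was higher in labelled knockout than in wild type by 0.69 ± 0.16 (adjusted p = 0.00203), and with LGG the difference was 0.17 ± 0.16 (adjusted p = 0.4), or -0.01 without those libraries.

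Of 13 further genes of tetrahydrobiopterin synthesis and of proteins that bind nitric oxide synthases, 10 were listed. Under LGG 1 of the 10 rose and 3 fell in labelled knockout, and 5 rose and 2 fell in wild type, with median log2 differences of -0.20 and 0.30. The combination gave 1 up and 3 down in labelled knockout, and 4 up and 2 down in wild type. Over all genes 18.1% rose and 14.2% fell under LGG in labelled knockout, and 27.4% and 28.2% in wild type. The combination shares were 19.1% and 14.4% in labelled knockout, and 26.7% and 28.3% in wild type. Nostrin, which encodes a protein known to bind and traffic the endothelial synthase, differed by -0.20 ± 0.18 (adjusted p = 0.431) in labelled knockout and rose by 1.46 ± 0.18 (adjusted p = 6.43e-07) in wild type, where it had 1686 ± 120.3 normalised counts with LGG and 611 ± 20.0 with IgG (SD, n = 3 each). Hsp90aa1, a chaperone that binds the synthases, differed by -0.01 ± 0.07 (adjusted p = 0.939) in labelled knockout and rose by 0.48 ± 0.07 (adjusted p = 6.97e-06) in wild type. Dynll1, a dynein light chain that binds the neuronal synthase, fell by 0.78 ± 0.24 (adjusted p = 0.0165) in labelled knockout and differed by -0.01 ± 0.24 (adjusted p = 0.966) in wild type.

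Slc7a2, the inducible cationic amino acid transporter, was abundant in every group and rose with LGG in both genotypes. In labelled knockout it had 49938, 49648 and 48630.2 normalised counts with the combination, 52099, 34707 and 66296 with LGG, 19167, 32744 and 14551 with anti-PD-1 and 21401, 19972 and 24490.1 with IgG. In wild type it had 43466, 46729 and 46751 with the combination, 32027, 32943 and 36707 with LGG, 19139.7, 21856 and 23324 with anti-PD-1 and 16684, 18843 and 17226 with IgG. LGG libraries lay above IgG libraries in each genotype, but spread widely in labelled knockout, where replicate 2 with LGG and replicate 3 with anti-PD-1, both among the libraries that stand apart, were the lowest of their groups.

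LGG raised Slc7a2 over IgG by 1.17 ± 0.22 (adjusted p = 0.000332) in labelled knockout and 0.95 ± 0.22 (adjusted p = 0.00111) in wild type. The combination raised it by 1.18 ± 0.22 (adjusted p = 0.00032) in labelled knockout and 1.38 ± 0.22 (adjusted p = 2.34e-05) in wild type. The genotypes did not differ past the threshold in the LGG effect, with a difference of 0.23 ± 0.31 (adjusted p = 0.623). Without the 3 libraries that stand apart that difference was 0.48 and passed (adjusted p = 0.00361). Under LGG the level was higher in labelled knockout by 0.54 ± 0.22 (adjusted p = 0.0431), a call lost with any of wild-type LGG replicates 1 to 3 or labelled-knockout LGG replicates 1 or 3 left out, at adjusted p values of 0.0542 to 0.232. Without the libraries that stand apart it was 0.80 ± 0.10 (adjusted p = 3.68e-07).

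Ass1, which starts the return of citrulline to arginine, was moved by LGG in opposite directions in the genotypes. Labelled-knockout cells had 21041, 20689.8 and 21497 normalised counts with the combination, 18686, 21480.5 and 16685 with LGG, 10105, 8200.2 and 9499 with anti-PD-1 and 9160.4, 9376 and 8473 with IgG. Wild-type cells had 5511, 5512 and 5286 with the combination, 6274, 6379.7 and 5762 with LGG, 7709, 7601 and 7517 with anti-PD-1 and 7724, 7239 and 7707 with IgG. The 6 labelled-knockout LGG libraries stood above all others, and the 6 wild-type LGG libraries stood below all others. LGG raised it over IgG by 1.07 ± 0.09 (adjusted p = 9.44e-09) in labelled knockout, 2.10-fold, whereas in wild type it fell by 0.30 ± 0.09 (adjusted p = 0.00564). With the combination it rose by 1.23 ± 0.09 (adjusted p = 1.5e-09) in labelled knockout and fell by 0.47 ± 0.09 (adjusted p = 9.27e-05) in wild type. The genotypes differed in the effect by 1.37 ± 0.12 (adjusted p = 3.37e-08) for LGG and by 1.70 ± 0.12 (adjusted p = 1.41e-09) for the combination.

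Of 12 further genes of arginine transport and resynthesis, 10 were listed. Under LGG 4 rose and 1 fell in labelled knockout, and 5 rose and 3 fell in wild type, with medians of 0.12 and 0.44. Under the combination 4 rose and 2 fell in labelled knockout, and 4 rose and 3 fell in wild type. Of all genes, 18.1% rose and 14.2% fell with LGG in labelled knockout, and 27.4% and 28.2% in wild type. For the combination these shares were 19.1% and 14.4% in labelled knockout, and 26.7% and 28.3% in wild type. Slc25a29, a mitochondrial carrier of basic amino acids, rose by 1.55 ± 0.26 (adjusted p = 0.000103) in labelled knockout and 2.68 ± 0.26 (adjusted p = 3.12e-08) in wild type. It was scarce, at 39.5 ± 4.46 normalised counts with LGG and 12.9 ± 2.31 with IgG in labelled knockout, and 262 ± 22.3 with LGG and 40.1 ± 5.26 with IgG in wild type (SD, n = 3 each). Slc7a3, another cationic amino acid transporter, rose by 0.74 ± 0.12 (adjusted p = 4.82e-05) in labelled knockout and 1.16 ± 0.12 (adjusted p = 4.97e-08) in wild type. Nags, N-acetylglutamate synthase, rose in both, by 0.85 ± 0.15 (adjusted p = 0.000193) in labelled knockout and 0.46 ± 0.15 (adjusted p = 0.0147) in wild type. Slc38a9, a lysosomal arginine sensor, differed by -0.04 ± 0.07 (adjusted p = 0.714) in labelled knockout and fell by 0.36 ± 0.07 (adjusted p = 0.000105) in wild type.

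Arg1, the cytosolic arginase, was the most abundant of the 7 per length in every group without LGG and fell with LGG in both genotypes. The labelled-knockout values were 39426, 37759 and 37997 normalised counts with the combination, 41613, 40595 and 39953 with LGG, 127273, 112111 and 65843 with anti-PD-1 and 109878, 113482 and 123425 with IgG. The wild-type values were 1082, 1113 and 1152 with the combination, 1235, 1292 and 1349 with LGG, 79385, 77123 and 79315 with anti-PD-1 and 74089.5, 70866 and 67268 with IgG. LGG libraries lay below libraries without LGG in each genotype with no overlap. The 6 wild-type LGG libraries lay far below the other 18.

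With LGG against IgG, Arg1 fell by 1.50 ± 0.15 (adjusted p = 1.79e-07) on the log2 scale in labelled knockout, 2.84-fold, and in wild type it fell by 5.77 ± 0.15 (adjusted p = 6.7e-17), 54.7-fold. With the combination it fell by 1.59 ± 0.15 (adjusted p = 8.77e-08) in labelled knockout and fell by 5.99 ± 0.15 (adjusted p = 3.61e-17) in wild type. The difference between genotypes was 4.27 ± 0.21 (adjusted p = 7.36e-12) for LGG and 4.40 ± 0.21 (adjusted p = 4.51e-12) for the combination. With IgG, Arg1 was higher in labelled knockout than in wild type by 0.71 ± 0.15 (adjusted p = 0.00081), and with LGG by 4.98 ± 0.15 (adjusted p = 7.42e-16). In wild type under LGG, 4 genes of the table fell more than Arg1.

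Most markers of macrophages and monocytes fell with Arg1 in wild type, and fewer did in labelled knockout. All 13 were listed and none was at 0 in all libraries. Their summed level was 308832 to 320675 normalised counts with the combination, 275562 to 373512 with LGG, 309651 to 466598 with anti-PD-1 and 384388 to 430453 with IgG in labelled knockout. In wild type it was 91589 to 99045 with the combination, 88257 to 97879 with LGG, 270882 to 282482 with anti-PD-1 and 265677 to 284750.4 with IgG. Under LGG 5 of the 13 fell and 2 rose in labelled knockout, and 9 fell and 2 rose in wild type. Beside these and the marker counts below, 18.1% of all genes rose and 14.2% fell in labelled knockout. In wild type 27.4% of all genes rose and 28.2% fell. Csf1r, the receptor for macrophage colony-stimulating factor, rose by 0.34 ± 0.06 (adjusted p = 0.000275) in labelled knockout and fell by 2.37 ± 0.06 (adjusted p = 9.41e-17) in wild type, whereas Cd14 rose in both. The macrophage markers Adgre1 and Cd68 were called in neither genotype under LGG. Of the 5 dendritic cell markers 3 rose under LGG in labelled knockout, and 2 rose and 1 fell in wild type. Itgax, which encodes the CD11c used for the purification, rose by 0.29 ± 0.07 (adjusted p = 0.00214) in labelled knockout and fell by 1.23 ± 0.07 (adjusted p = 5e-12) in wild type. Flt3, the receptor for a dendritic cell growth factor, rose by 2.52 ± 0.22 (adjusted p = 3.16e-08) in labelled knockout and 2.53 ± 0.22 (adjusted p = 6.63e-09) in wild type. H2-Ab1 and Cd74 were called in neither. Zbtb46, a transcription factor of conventional dendritic cells, rose by 1.01 ± 0.08 (adjusted p = 3.46e-09) in labelled knockout and 2.43 ± 0.08 (adjusted p = 1.03e-15) in wild type. Of 5 markers of plasmacytoid dendritic cells, Bst2, Tcf4, Irf8 and Ccr9 were listed and Siglech was not. Of the 4 listed, 4 rose in labelled knockout and 3 in wild type. They summed to 13846 to 23009.8 with LGG and 9348 to 10867 with IgG in labelled knockout. In wild type they summed to 62273 to 67275 with LGG and 13361 to 14558 with IgG. Markers of lymphocytes also moved with LGG and with genotype. In labelled knockout 7 of 7 T cell, 5 of 5 B cell and 4 of 4 listed NK cell markers rose under LGG. There 18.1% of all genes rose. In wild type, where 27.4% of all genes rose, 2, 3 and 2 rose in that order and 1 NK cell marker fell. T cell markers summed to 1844 to 3219 with LGG and 596 to 659 with IgG in labelled knockout, and to 8269 to 9520.3 with LGG and 5900.3 to 6704 with IgG in wild type. NK cell markers summed to 3112 to 3382 with LGG and 693 to 837 with IgG in labelled knockout, and to 11253 to 11929 with LGG and 9898 to 10468 with IgG in wild type. B cell markers were low, at 146 to 225 with LGG and 33.9 to 38.9 with IgG in labelled knockout, and 488 to 555 with LGG and 254 to 271 with IgG in wild type. Of 7 listed neutrophil markers 4 rose and 1 fell in labelled knockout, and 4 fell in wild type. In bulk RNA, fewer cells of a type and less RNA per cell cannot be told apart, and the part of any of these markers in the results for the 7 genes was not tested.

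Arg2, the mitochondrial arginase, moved against Arg1. In labelled knockout it had 123, 130.1 and 142 normalised counts with the combination, 208, 155 and 167 with LGG, 29.8, 30.4 and 26.4 with anti-PD-1 and 28.0, 32.7 and 24.5 with IgG. In wild type it had 377, 409 and 431 with the combination, 489, 454 and 507 with LGG, 68.2, 53.0 and 49.7 with anti-PD-1 and 52.2, 62.3 and 67.8 with IgG. The 4 LGG groups lay above the 4 others without overlap, and within each treatment every labelled-knockout library lay below every wild-type one. LGG raised Arg2 over IgG by 2.59 ± 0.15 (adjusted p = 6.58e-11) in labelled knockout and 2.98 ± 0.15 (adjusted p = 9.95e-13) in wild type, and the combination by 2.18 ± 0.15 (adjusted p = 8.05e-10) in labelled knockout and 2.72 ± 0.15 (adjusted p = 4.09e-12) in wild type. The genotypes did not differ past the threshold in the LGG effect, at -0.39 ± 0.21 (adjusted p = 0.158). With 8 added to each value in place of 1, that difference was -0.51 and passed (adjusted p = 0.0385). In the combination effect the genotypes did differ, at -0.54 ± 0.21 (adjusted p = 0.0479), a call that edgeR (adjusted p = 0.0544) and DESeq2 (adjusted p = 0.0883) did not make. It was also lost with wild-type IgG replicate 1 or 2, wild-type combination replicate 2 or 3, labelled-knockout IgG replicate 1 or 2 or labelled-knockout combination replicate 1 or 2 left out, at adjusted p values of 0.0648 to 0.132.

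Transcript levels of different genes were set side by side per kilobase of exon. Nos2 per kilobase over Arg1 per kilobase was 0.0195 to 0.0219 in the 3 labelled-knockout combination libraries, 0.0182 to 0.0222 with LGG, 0.000245 to 0.000520 with anti-PD-1 and 0.000439 to 0.000533 with IgG. In wild type this ratio was 17.5 to 18.4 with the combination, 11.2 to 12.8 with LGG, 0.00105 to 0.00112 with anti-PD-1 and 0.00152 to 0.00166 with IgG. Only the 6 wild-type LGG libraries of the 24 had more Nos2 than Arg1 transcript per kilobase. Arg1 per kilobase over Arg2 per kilobase was 128 to 168 with LGG and 2223 to 3231 with IgG in labelled knockout, and 1.62 to 1.82 with LGG and 636 to 909 with IgG in wild type. Arg1 was the more abundant arginase transcript per kilobase in all 24 libraries.

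**Figure D3:**
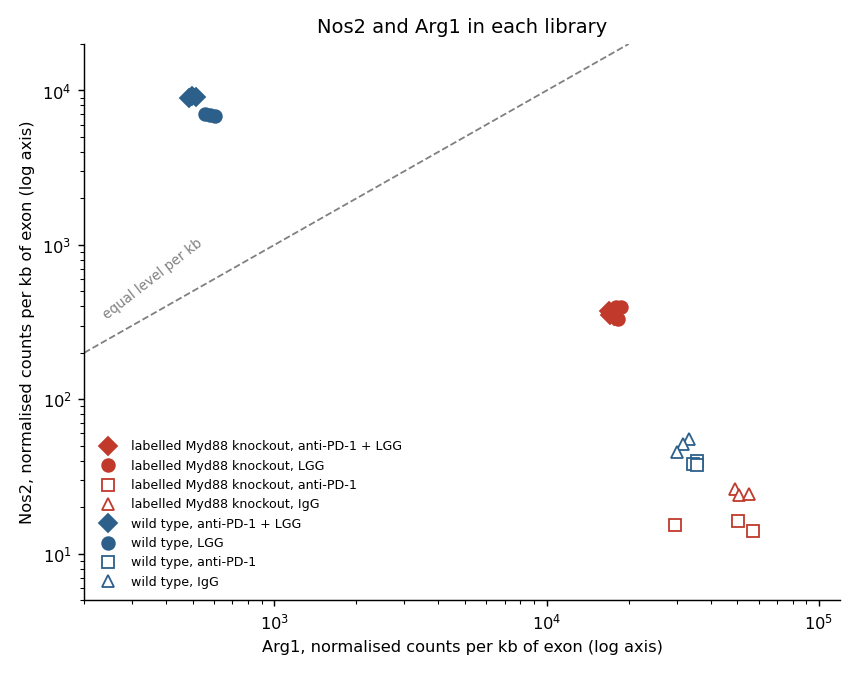
Nos2 against Arg1 in each of 24 libraries, in normalised counts per kilobase of exon on log axes, with libraries labelled Myd88 knockout in red and wild type in blue. The 6 wild-type LGG libraries lie above the line of equal levels, with ratios of 11.2 to 18.4, and the other 18 lie below it.

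Odc1, which makes putrescine from the ornithine that arginases release, was the other gene with opposite directions. The labelled-knockout values were 4247, 4119 and 4024 normalised counts with the combination, 4231, 4458 and 4113 with LGG, 6199, 5503 and 5156 with anti-PD-1 and 5733, 5489 and 5156 with IgG. The wild-type values were 10102, 10526 and 10059 with the combination, 14526, 14147 and 13005 with LGG, 5411, 5547 and 5343 with anti-PD-1 and 5768, 5627 and 5453 with IgG. The 6 wild-type LGG libraries stood above, and the 6 labelled-knockout LGG libraries below, the 12 libraries without LGG, which overlapped across genotypes. With LGG against IgG, Odc1 fell by 0.35 ± 0.07 (adjusted p = 0.000421) in labelled knockout and rose by 1.31 ± 0.07 (adjusted p = 2.92e-12) in wild type. With the combination it fell by 0.40 ± 0.07 (adjusted p = 0.00012) in labelled knockout and rose by 0.87 ± 0.07 (adjusted p = 1.57e-09) in wild type. The genotypes differed in the effect by -1.66 ± 0.10 (adjusted p = 7.83e-11) for LGG and by -1.27 ± 0.10 (adjusted p = 3.86e-09) for the combination. With IgG the genotypes differed by -0.04 ± 0.07 (adjusted p = 0.66), which did not pass.

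Of 16 further polyamine genes, 15 were listed. Under LGG 4 rose and 4 fell in labelled knockout, and 4 rose and 8 fell in wild type, with medians of -0.06 and -0.40. The combination gave 4 up and 4 down in labelled knockout, and 3 up and 8 down in wild type. Shares over all genes under LGG were 18.1% up and 14.2% down in labelled knockout, and 27.4% and 28.2% in wild type. Those under the combination were 19.1% and 14.4% in labelled knockout, and 26.7% and 28.3% in wild type. Smox, the oxidase that returns spermine to spermidine, rose by 0.36 ± 0.08 (adjusted p = 0.00113) in labelled knockout and 2.41 ± 0.08 (adjusted p = 1.6e-15) in wild type. It had 2169 ± 218 normalised counts with LGG and 1685 ± 60.7 with IgG in labelled knockout, and 7497 ± 200.4 with LGG and 1410.2 ± 57.8 with IgG in wild type (SD, n = 3 each). Azin2, an inhibitor of the antizymes that degrade ornithine decarboxylase, rose by 1.22 ± 0.09 (adjusted p = 6.3e-09) in labelled knockout and 1.88 ± 0.09 (adjusted p = 1.66e-12) in wild type. Srm, spermidine synthase, fell by 0.97 ± 0.18 (adjusted p = 0.000297) in labelled knockout and fell by 2.04 ± 0.18 (adjusted p = 8.87e-09) in wild type. Sat1, the acetyltransferase that starts polyamine breakdown, fell by 0.83 ± 0.11 (adjusted p = 4.87e-06) in labelled knockout and fell by 0.59 ± 0.11 (adjusted p = 9.86e-05) in wild type. Atp13a2, a lysosomal polyamine exporter, rose by 0.17 ± 0.06 (adjusted p = 0.0427) in labelled knockout and fell by 1.45 ± 0.06 (adjusted p = 1.54e-13) in wild type. Smox and Azin2 thus rose and Srm and Sat1 fell in both genotypes, whereas Odc1 rose in wild type only. Atp13a2 moved in opposite directions in the genotypes, each time against Odc1.

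The 7 genes that link ornithine to proline and glutamate were all listed. Under LGG 2 fell and none rose in labelled knockout, and 1 rose and 4 fell in wild type, with medians of -0.37 and -0.22. With the combination none rose in either genotype, and 3 fell in labelled knockout and 4 in wild type. Among all genes, 18.1% rose and 14.2% fell under LGG in labelled knockout, and 27.4% and 28.2% in wild type. Combination shares were 19.1% and 14.4% in labelled knockout, and 26.7% and 28.3% in wild type. Oat, ornithine aminotransferase, fell in both genotypes. It fell by 0.56 ± 0.07 (adjusted p = 2.47e-06) in labelled knockout and fell by 0.22 ± 0.07 (adjusted p = 0.0113) in wild type. Aldh18a1, which makes the precursor of proline from glutamate, fell by 0.42 ± 0.13 (adjusted p = 0.0196) in labelled knockout and fell by 0.37 ± 0.13 (adjusted p = 0.0222) in wild type. Pycr1, which encodes a pyrroline-5-carboxylate reductase, differed by -0.35 ± 0.16 (adjusted p = 0.106) in labelled knockout and rose by 0.47 ± 0.16 (adjusted p = 0.0182) in wild type. Pycrl differed by -0.47 ± 0.21 (adjusted p = 0.103) in labelled knockout and fell by 0.55 ± 0.21 (adjusted p = 0.0345) in wild type.

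Of 13 genes for other uses of arginine and for methylation of arginine residues, 12 were listed. Under LGG 1 rose and 5 fell in labelled knockout, and 3 rose and 8 fell in wild type, with medians of -0.30 and -0.62. The combination gave 2 up and 5 down in labelled knockout, and 2 up and 8 down in wild type. All genes together gave 18.1% up and 14.2% down under LGG in labelled knockout, and 27.4% and 28.2% in wild type. They gave 19.1% and 14.4% under the combination in labelled knockout, and 26.7% and 28.3% in wild type. Padi4, which converts arginine residues of proteins to citrulline, fell by 0.89 ± 0.12 (adjusted p = 6.18e-06) in labelled knockout and fell by 3.47 ± 0.12 (adjusted p = 3.39e-15) in wild type. It had 298 ± 24.4 normalised counts with LGG and 552 ± 22.9 with IgG in labelled knockout, and 70.9 ± 13.0 with LGG and 787 ± 57.4 with IgG in wild type (SD, n = 3 each). Its paralogue Padi2 rose in both, by 1.81 ± 0.19 (adjusted p = 4.09e-07) in labelled knockout and 0.50 ± 0.19 (adjusted p = 0.0323) in wild type. Gatm, which uses arginine in creatine synthesis, fell by 0.40 ± 0.07 (adjusted p = 0.000122) in labelled knockout and fell by 1.20 ± 0.07 (adjusted p = 1.24e-11) in wild type. Prmt7, a protein arginine methyltransferase, fell by 0.61 ± 0.14 (adjusted p = 0.00238) in labelled knockout and fell by 1.70 ± 0.14 (adjusted p = 4.19e-09) in wild type.

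**Figure D4:**
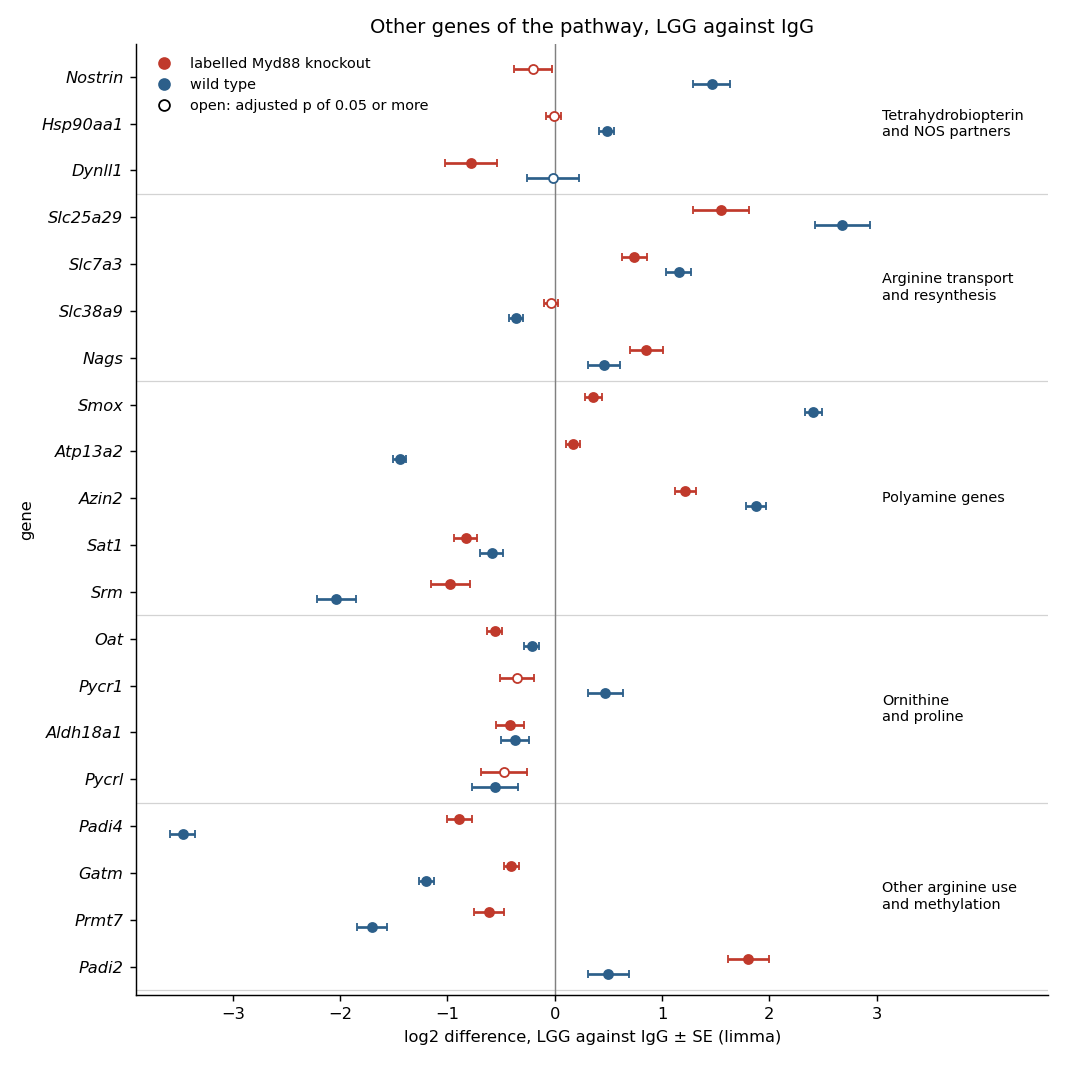
Log2 difference of LGG from IgG with 1 standard error (limma, 3 libraries a group) for the named genes of 5 pathway lists, with libraries labelled Myd88 knockout in red and wild type in blue, and open points where the adjusted p was 0.05 or more. Slc25a29, Smox and Azin2 lie furthest to the right in wild type, and Padi4 and Srm furthest to the left.

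With the antibody alone, few of the 7 genes were called against IgG. In labelled knockout only Nos2 was called, at -0.70 ± 0.08 (adjusted p = 0.000124), where 1.8% of all genes were called. That background, 229 genes, rested on single libraries and ranged from 74 without IgG replicate 2 to 4581 without anti-PD-1 replicate 2. Without that anti-PD-1 replicate Gch1 was called as well (adjusted p = 0.0272). The 3 labelled-knockout anti-PD-1 libraries lay below the 3 IgG libraries, and the difference was -0.82 (adjusted p = 1.02e-05) without the libraries that stand apart, with replicate 1 then the lone anti-PD-1 library and assumed to vary like the other groups. When only the 6 libraries compared were fitted, its adjusted p was 0.952. In wild type none of the 7 was called by limma, where 0.0314% of all genes were, and 1 of the 7 had an unadjusted p under 0.05. EdgeR on the recovered reads called 0 of the 7 and DESeq2 called 1. That gene was Nos2, at -0.39 ± 0.08 (adjusted p = 0.0929), again with the 3 anti-PD-1 libraries below the 3 IgG libraries. It was called when only the libraries compared were fitted (adjusted p = 0.0292), by DESeq2 (adjusted p = 0.0118) and without the 3 libraries that stand apart (adjusted p = 0.000677). The other 6 genes differed by -0.24 ± 0.15 at most in size in labelled knockout (Arg1, 0.14 without the libraries that stand apart) and 0.28 ± 0.22 in wild type (Slc7a2). With only the libraries compared in the fit, Slc7a2 (adjusted p = 0.0178) and Arg1 at 0.15 (adjusted p = 0.0468) were also called in wild type.

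Setting the combination against anti-PD-1 alone, which shares the antibody, all 7 were called in each genotype with the directions seen against IgG, where 36.7% of all genes were called in labelled knockout and 56.8% in wild type. Nos2 was higher by 4.53 ± 0.08 (adjusted p = 3.45e-18) in labelled knockout and 7.87 ± 0.08 (adjusted p = 1.05e-22) in wild type, and Arg1 fell by 1.35 ± 0.15 (adjusted p = 7.28e-07) in labelled knockout and fell by 6.14 ± 0.15 (adjusted p = 2.14e-17) in wild type. Without the libraries that stand apart, which leaves a lone labelled-knockout anti-PD-1 library, the Arg1 difference in labelled knockout was -1.73. That for Odc1 was -0.59 there, against -0.44 over all libraries, and that for Ass1 was 1.06, against 1.19. The comparisons with anti-PD-1 share the combination libraries with those against IgG. With only the libraries compared in the fit, Slc7a2, Odc1 and Gch1 were not called in labelled knockout, at adjusted p values of 0.0553 to 0.107.

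Few of the 7 were called when the antibody was added to LGG. In labelled knockout none was called by limma in the combination against LGG alone, where 0.275% of all genes were called. EdgeR and DESeq2 also called 0, and 1 of the 7 had an unadjusted p under 0.05, Arg2 at -0.41 ± 0.15 (adjusted p = 0.443). Without the libraries that stand apart Arg2 (adjusted p = 0.0498) and Ass1 (adjusted p = 0.0105) were called. In wild type Odc1 was lower, at -0.44 ± 0.07 (adjusted p = 0.0117), where 0.0628% of all genes were called. The 3 wild-type combination libraries lay below the 3 LGG libraries for Odc1, but the call was lost without LGG replicate 1 or 2 or without combination replicate 1 or 3, at adjusted p values of 0.0694 to 0.0934. Nos2 and Slc7a2 were higher in all 3 wild-type combination libraries than in any LGG library, at 0.38 ± 0.08 (adjusted p = 0.0974) and 0.43 ± 0.22 (adjusted p = 0.793), and neither passed. DESeq2 called Nos2 (adjusted p = 5.78e-06). With only the libraries compared in the fit, Nos2 (adjusted p = 0.0139) and Slc7a2 (adjusted p = 0.0185) were called. Without the 3 libraries that stand apart, all in labelled knockout, which changes only the estimated spread here, Nos2 (adjusted p = 0.00116), Slc7a2 (adjusted p = 0.00779), Arg1 at -0.21 (adjusted p = 0.0189) and Ass1 at -0.17 (adjusted p = 0.0443) were called beside Odc1.

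Between genotypes, 39.0% of all genes were called with IgG, 45.7% with anti-PD-1, 55.2% with LGG and 58.1% with the combination. Of the 7 genes, 5, 4, 6 and 5 were called in these comparisons in that order. Nos2 and Arg2 were lower in labelled knockout than in wild type in all 4 treatments, Arg2 with differences of -1.07 ± 0.15 (adjusted p = 7.34e-06) with IgG and -1.46 ± 0.15 (adjusted p = 4.66e-08) with LGG. Ass1 was higher in all 4, by 0.25 ± 0.09 (adjusted p = 0.0252) with IgG and 1.95 ± 0.09 (adjusted p = 1.72e-13) with the combination, although the IgG call was lost without wild-type replicate 2 or labelled-knockout replicate 1 or 2. Arg1 was called higher in labelled knockout by limma in 3 treatments. With anti-PD-1 its difference was 0.32 ± 0.15 by limma (adjusted p = 0.0848), and DESeq2 called it at 0.37 (adjusted p = 0.0297). It was 0.70 without the libraries that stand apart, a fit that leaves 1 labelled-knockout anti-PD-1 library, assumed to vary like the other groups. Replicate 3 of labelled-knockout anti-PD-1 had the lowest Arg1 of its group, and without it alone the difference was 0.60 and was called. Slc7a2 with IgG (0.32) and Gch1 with the combination (0.22) were called as well without the 3 libraries, where only the estimated spread changed. Odc1 with anti-PD-1 differed by 0.19 without them, again with that lone library. The Ass1 call with anti-PD-1 was lost without labelled-knockout replicate 1 (adjusted p = 0.0766). With only the anti-PD-1 libraries in the fit, Arg2, Ass1 and Gch1 were not called between genotypes, at adjusted p values of 0.0631 to 0.233. Odc1 was lower in labelled knockout with LGG and with the combination, at -1.70 ± 0.07 (adjusted p = 5.3e-14) and -1.31 ± 0.07 (adjusted p = 2.57e-12).

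The difference between genotypes in the effect of treatment was called for 4 of the 7 genes with LGG, where 34.9% of all genes were called, and for 5 with the combination, where 33.8% were. Nos2, Arg1, Ass1 and Odc1 were called with both, and Arg2 with the combination. Gch1 and Slc7a2 were called with neither over all 24 libraries, a result that does not show that their responses were alike.

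Per kilobase of exon, the order of the 7 transcripts changed with LGG in wild type. In labelled knockout with LGG, Arg1 stood first at 18277 ± 376 normalised counts per kilobase, then Ass1 at 7850.2 ± 998 and Slc7a2 at 5587 ± 1732, with Nos2 at 374 ± 37.6 (SD, n = 3 each). In wild type with LGG, Nos2 stood first at 6940.2 ± 144, then Odc1 at 4080.1 ± 233 and Slc7a2 at 3710.2 ± 271, with Arg1 at 580.0 ± 25.6 (SD, n = 3 each). In wild type with IgG, Arg1 stood first at 31751 ± 1532 and Nos2 stood at 50.9 ± 4.76 (SD, n = 3 each). Gch1 and Arg2 were the scarcest pair in wild type with LGG, at 475 ± 46.1 and 339 ± 18.8 (SD, n = 3 each).

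For each gene, the genes most like it were taken as those with the smallest root mean square difference of their 8 group means of log2(value + 1), each centred on its own mean. Nearest to Nos2 were Il1f6 (0.656), Ifi205 (0.675) and Il12a (0.696), which encode interleukin 36 alpha, an interferon-inducible protein and the p35 subunit of interleukin 12. Among the 3 nearest to Arg1 were the chemokine receptor Ccr2 (0.293) and the lectin Clec4b1 (0.372). Nearest to Arg2 were Stx11 (0.262), Nfkbie (0.275) and Cmpk2 (0.295), and nearest to Gch1 were Sqstm1 (0.0672), Ak4 (0.124) and Tsku (0.128). Nearest to Slc7a2 were Plpp1 (0.11), Txnrd1 (0.151) and Best1 (0.158), to Ass1 S1pr2 (0.131), Cdk18 (0.146) and Irgc1 (0.159), and to Odc1 Cth (0.11), Carhsp1 (0.117) and Smagp (0.122). The distances are in log2 units over 8 groups and are descriptions, since so many genes moved with LGG.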

How the data were processed

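The study sequenced RNA from 24 libraries of CD11c-positive cells, 3 in each of 8 groups. The authors deposited a table of normalised signal, in which a read count is scaled by its library's factor. STAR 2.4.0 with build mm10, HTSeq 0.6.1 and DESeq2 served for alignment, counting and normalisation, per the submitters' processing notes. The strand setting and the filter that left 12767 genes, with a lowest mean of 9.57, are not given in the sources used here. Dividing by the value of 1 read returned whole reads for 100% of values within 0.001, and these served the count tests. Columns not used numbered 0.

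From the deposited values, log2(value + 1) was fitted with limma 3.58.1 in R 4.3.3 where a gene's mean reached 10 (12749 genes), as 1 mean per group over 24 libraries with a variance trend and robust moderation. Two-sided p-values of each of 16 comparisons had the Benjamini-Hochberg adjustment, and a gene was called under 0.05. The 7 genes were not selected on these values by the rule, but they, the pathway lists, the markers and the naming rule were chosen with earlier results of these data known. From each of 5 lists the text names the 3 genes with the smallest p under LGG in each genotype. A few genes that the naming rules select are not reported here. Levels between genes use exon length from GENCODE M21. Alternatives were a pseudocount of 8, no filter, TMM scaling, a fit of only the libraries compared, a replicate block, edgeR 4.0.16, DESeq2 1.42.0 and each library left out. Leaving out the 3 libraries that stand apart was added after seeing the data. The fit was tested on simulated data. Replicates of a group differed by more than sampling noise in every pair.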

Additional observations from a re-analysis of the deposited data

Results flagged for a closer look

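Listed here are the tested differences between genotypes in the effect of treatment, as labelled knockout minus wild type on the log2 scale (limma, standard error, 3 libraries a group). For LGG against IgG the difference was -3.20 ± 0.12 for Nos2, 4.27 ± 0.21 for Arg1, 1.37 ± 0.12 for Ass1 and -1.66 ± 0.10 for Odc1. For the combination against IgG it was -3.65 ± 0.12 for Nos2, 4.40 ± 0.21 for Arg1, 1.70 ± 0.12 for Ass1 and -1.27 ± 0.10 for Odc1. Arg2 differed for the combination by -0.54 ± 0.21, with an adjusted p of 0.0479 by limma, and was not called by edgeR or DESeq2. Nos2 rose and Arg1 fell in both genotypes, by less in labelled knockout, whereas Ass1 and Odc1 moved in opposite directions. Without the 3 libraries that stand apart, Gch1 (-0.70) and Slc7a2 (0.48) were also called for LGG, and Gch1 (-0.47) for the combination. The combination comparison holds none of the 3 libraries, and only the estimated spread changed there.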

How the results depend on the processing

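The 7 genes in 16 comparisons gave 112 differences, refitted 1652 times, of which 1560 kept their direction and side of the threshold, 29 changed sign without being called in either fit, 33 lost the call, 30 gained it and 0 called differences reversed. All 7 stayed called under LGG and under the combination against IgG in both genotypes under every alternative run. Fitting only the libraries compared changed the number of the 7 called from 1 to 0 for anti-PD-1 against IgG in labelled knockout, from 7 to 4 for the combination against anti-PD-1 there, from 4 to 1 for labelled knockout against wild type with anti-PD-1, from 0 to 3 for anti-PD-1 against IgG in wild type and from 1 to 3 for the combination against LGG in wild type. DESeq2 called 1 and 2 in the last pair of comparisons. Without the 3 libraries that stand apart these were 1 and 5, and 2 for the combination against LGG in labelled knockout, against 0. Other calls also changed with only the libraries compared. Between genotypes, Slc7a2 was gained with IgG (adjusted p = 0.00379), and Slc7a2 (adjusted p = 0.0252) and Gch1 (adjusted p = 0.000868) with the combination. Slc7a2 was lost with LGG (adjusted p = 0.108), and Gch1 was gained for the genotype difference under the combination (adjusted p = 0.000628). With single libraries left out, the number called ranged from 0 to 1 for the combination against LGG in wild type and from 1 to 2 for anti-PD-1 against IgG in labelled knockout. Same-numbered libraries were not correlated above 0.1 throughout any comparison and in no comparison did every library correlate best with its own number. Single pairs reached 0.516 for LGG against IgG in labelled knockout and 0.560 between genotypes with LGG. For the genotype differences only the labelled-knockout groups were correlated. With 3 libraries a group, these values cannot show whether same-numbered libraries share an animal or a batch. Under a replicate block the number called was 5 for labelled knockout against wild type with LGG (Slc7a2, adjusted p = 0.0566) and 4 for the genotype difference under the combination (Arg2, adjusted p = 0.0643). The cause of these changes was not tested. Over all genes, limma called 4 for anti-PD-1 against IgG in wild type, and 0 under the block, 7 with a pseudocount of 8, 9 by edgeR, 203 by DESeq2, 1760 with only the libraries compared and 1079 without the 3 libraries. For the combination against LGG in wild type it called 8, and 5 under the block, 16 with TMM scaling, 81 by DESeq2, 145 with only the libraries compared and 1095 without the 3 libraries. For anti-PD-1 against IgG in labelled knockout it called 229, and 602 by DESeq2, 0 with only the libraries compared, where 368 had an unadjusted p under 0.05, and 1140 without the 3 libraries. For the combination against LGG there it called 35, and 55 by edgeR, 203 by DESeq2, 0 with only the libraries compared, where 620 had an unadjusted p under 0.05, and 1437 without the 3 libraries. With only the libraries compared, calls for LGG against IgG in labelled knockout numbered 2677 against 4108, for the combination against IgG there 7369 against 4267, for the combination against anti-PD-1 there 1245 against 4673, between genotypes with IgG 7936 against 4977, between genotypes with anti-PD-1 796 against 5831, and for the genotype difference under the combination 7388 against 4312. Without the 3 libraries, calls numbered 7830 for LGG against IgG and 7299 for the combination against IgG in labelled knockout, 8139 between genotypes with IgG, and 8010 (against 4449) and 7194 for the genotype differences under LGG and the combination. With single libraries left out, calls ranged from 74 to 4581 against 229 for anti-PD-1 against IgG in labelled knockout, 745 without anti-PD-1 replicate 1, 4581 without replicate 2 and 108 without replicate 3, and 74 to 121 without 1 IgG library. They reached 7544 against 4673 for the combination against anti-PD-1 there without that replicate 2, and ranged from 3307 to 8689 against 5831 between genotypes with anti-PD-1, where leaving out labelled-knockout replicate 1 or 3 or wild-type replicate 2 or 3 gave 3307 to 3873. They ranged from 11 to 47 against 35 for the combination against LGG in labelled knockout, 0 to 7 against 8 in wild type and 0 to 3 against 4 for anti-PD-1 against IgG in wild type. Arg2 without LGG rests on few reads, which limits its precision.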
